A study of Homo sapiens with 12 samples.

Results

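ZNF595, ZNF718, ZNF732, ZNF141 and ZNF721 are the zinc-finger genes of a cluster at the tip of the short arm of chromosome 4, 5 of the 61163 genes in the count tables. ZNF718 was selected on its measured log2 fold change between genotypes, which is among the largest rises in cells without hnRNP UL1, and the other 4 were chosen by position as its zinc-finger neighbours. In the HEK UL1 KO cells, ZNF718 was 43.7-fold higher in the cytoplasmic-nuclear (CN) RNA and 7.75-fold higher in the nucleolar (NO) RNA than in the HEK WT cells. Its neighbour toward the telomere, ZNF595, was 6.44-fold lower in CN and 2.65-fold lower in NO, so that the most abundant RNA of the pair changed from ZNF595 to ZNF718. The changes of ZNF732, ZNF141 and ZNF721 were all smaller than 1 on the log2 scale.

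The genes encode C2H2 zinc-finger proteins, each with a row of fingers in which a zinc ion holds a small fold that can contact DNA. Such genes stand in clusters of tandem copies that have multiplied and diverged during primate evolution. Many proteins of the class also carry a KRAB domain, which binds the co-repressor TRIM28 (KAP1), and TRIM28 brings in the histone methyltransferase SETDB1 and heterochromatin proteins that silence the bound DNA, often a transposable element.

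Libraries came from HEK293T, an established line of human embryonic kidney cells that carries the SV40 large T antigen, either wild-type (HEK WT) or with the HNRNPUL1 gene disrupted by CRISPR-Cas9 with guides in exons 2 and 3 (HEK UL1 KO). No treatment was applied, and the number of knockout clones is not given in the sources used here. Each genotype was fractionated into NO and CN RNA, with 3 libraries, called biological triplicates in the series, for each of the 4 groups. Total RNA was sequenced without rRNA depletion.

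In GENCODE release 44 on GRCh38, the order from the telomere is ZNF595 (chr4:53286-88208, plus strand), ZNF718 (chr4:124501-202303, plus), the pseudogene ZNF876P (chr4:212610-255985, plus), ZNF732 (chr4:270675-305474, minus), ZNF141 (chr4:337814-384868, plus) and ZNF721 (chr4:425815-499156, minus). The end of ZNF595 and the start of ZNF718 are 36292 bases apart, and 10306 bases separate ZNF718 from ZNF876P. ZNF876P is called a pseudogene here after its symbol, but this release classes it as a long non-coding RNA. The sequences around the starts of ZNF595 and ZNF141 are shown because the first fell and the second passed no test between genotypes. Each runs from 250 bases before the start to 50 after it, and capitals mark CG dinucleotides. Those of ZNF595 (chr4:53071-53370) and ZNF141 (chr4:337564-337863) are from RefSeq on GRCh38.p14, both on the plus strand.
ZNF595: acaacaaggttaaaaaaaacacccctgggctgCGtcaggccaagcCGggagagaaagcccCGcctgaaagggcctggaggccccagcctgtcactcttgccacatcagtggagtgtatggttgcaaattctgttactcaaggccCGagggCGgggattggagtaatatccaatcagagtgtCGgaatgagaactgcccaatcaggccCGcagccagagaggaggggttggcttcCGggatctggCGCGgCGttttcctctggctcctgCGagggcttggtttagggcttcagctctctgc
ZNF141: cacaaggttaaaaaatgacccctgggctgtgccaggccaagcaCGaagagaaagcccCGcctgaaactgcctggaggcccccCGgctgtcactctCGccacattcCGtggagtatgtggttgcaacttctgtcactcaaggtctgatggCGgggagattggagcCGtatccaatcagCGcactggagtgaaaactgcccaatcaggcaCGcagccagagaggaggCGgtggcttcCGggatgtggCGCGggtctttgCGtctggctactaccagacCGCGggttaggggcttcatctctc

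Both sequences resemble each other, with 80.4% of aligned positions identical. They hold 12 CG dinucleotides in ZNF595 and 16 in ZNF141, beside a median of 14 over the 35116 RefSeq promoters of the same length. The letters CCAAT, searched on both strands, occur 3 times in each, and 34.6% of all promoters hold them at least once. The deposited counts are per gene and do not say which start was used. ZNF732 and ZNF721 had no entry in the RefSeq promoter table.

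Reads of these genes could in part be shared with other genes. ZNF595 had 0% of its 75-base transcript windows in the transcripts of any other gene, and ZNF718 had 3.41%, all of them in the long non-coding RNA XACT and none in another gene of the cluster. The share was 1.67% for ZNF732, 0.12% for ZNF141 and 1.19% for ZNF721. ZNF732 shared windows with ZNF141 and ZNF721 of the cluster, and 31 of its 38 shared windows lay in ZNF721, a far more abundant gene. The effect of this on the ZNF732 values was not tested. The windows came from the main annotated transcript of each gene and were matched exactly. The paper's alignment allowed mismatches, so reads of near-identical copies could be shared beyond these values. ZNF721 has a further limit, because the pseudogene ABCA11P overlaps it on the same strand and shares 1647 exon bases, 25.8% of the exon bases of ZNF721 and 59% of those of ABCA11P. The ratio of ABCA11P to ZNF721 counts was between 0.999 and 1.11 in all 12 libraries. Reads of the shared exons cannot be told apart between the pair, so the ZNF721 values below are uncertain in level.

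The libraries held 37141666 to 83019079 counts in NO and 54349399 to 104040073 in CN. HNRNPUL1 itself fell. In NO it had 15.3 ± 6.13 CPM, counts scaled to a common library size by TMM (SD, n = 3), in HEK WT and 3.83 ± 0.262 in HEK UL1 KO (log2 fold change -2.00, adjusted p = 0.00649, edgeR), and in CN 17.0 ± 1.41 against 4.80 ± 0.0582 CPM (-1.83, adjusted p = 2.12e-07, edgeR). All 6 marker genes of the line (PAX2, NEFM, NEFL, VIM, KRT8 and KRT18) were counted in every library. Their summed level was 39.4 to 46.7 CPM in HEK WT CN and 24.2 to 24.9 in HEK UL1 KO CN, and 29.3 to 54.2 against 19.9 to 24.8 in NO. VIM alone had 8.01 to 37.8 CPM over the libraries, while KRT8 had 0.468 to 3.76. The 6 markers of other cell types (PTPRC, CD3E, HBB, ALB, COL1A1 and EPCAM) summed to 0.746 to 0.849 CPM in HEK WT CN and 1.25 to 1.49 in HEK UL1 KO CN, and to 2.79 to 3.40 against 3.55 to 3.89 in NO. CD3E, HBB and ALB were at 0 in at least 1 library. PTPRC (5 to 178 counts, up to 1.90 CPM), COL1A1 (28 to 120 counts) and EPCAM (7 to 43 counts) were counted in every library. The part of these marker levels in the results was not tested. HEK WT NO replicate 3 stood apart within its group, with a TMM scaling factor of 1.40 against 0.690 and 0.622 in the other libraries of the group. The HEK UL1 KO NO libraries had 1.34, 1.09 and 1.15, so replicate 3 was closer to these. Without HEK WT NO replicate 3, the scaling factors did not overlap between the genotypes in NO. The share of genes called between genotypes in NO then rose from 0.939 to 25.1%, so the NO values of the 5 genes are also given without this library.

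ZNF718 was at a low level in the HEK WT cells and at a high level in every HEK UL1 KO library. Its counts in CN were 33, 26 and 22 in HEK WT replicates 1, 2 and 3 and 1017, 1191 and 795 in HEK UL1 KO. On the CPM scale these are 0.392, 0.311 and 0.278 against 13.9, 15.9 and 13.4. The groups stood far apart, with the lowest knockout library above the highest wild-type library. In NO the counts were 50, 35 and 80 in HEK WT and 1097, 275 and 537 in HEK UL1 KO, or 1.28, 1.08 and 1.35 against 9.89, 6.46 and 12.6 CPM. Here too the groups did not overlap, but the spread among the knockout libraries was wider than in CN.

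The log2 fold change of ZNF718 was 5.45 (SE 0.133) in CN and 2.95 (SE 0.316) in NO. Because this contrast chose the gene, these values and their SEs are descriptive and carry no test. The same holds for the place of ZNF718 in the order below and for its ranges, which give no separate support. When genes were ordered by their rise, keeping those with an adjusted p under 0.05, no overlap of CPM between the genotypes and 50 or more counts per library on average, ZNF718 was number 3 of 2588 in CN, after ZNF544 (5.69) and before C2CD2 (4.52). In NO it was number 7 of 96, after CCN2 (3.07) and before LYPD1 (2.7). Leaving out each library in turn kept its log2 fold change between 5.39 and 5.60 in CN and between 2.71 and 3.21 in NO, and it was 3.01 in NO without HEK WT NO replicate 3. In RNA from whole cultures, a larger number of expressing cells and more RNA per cell cannot be told apart.

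**Figure D1:**
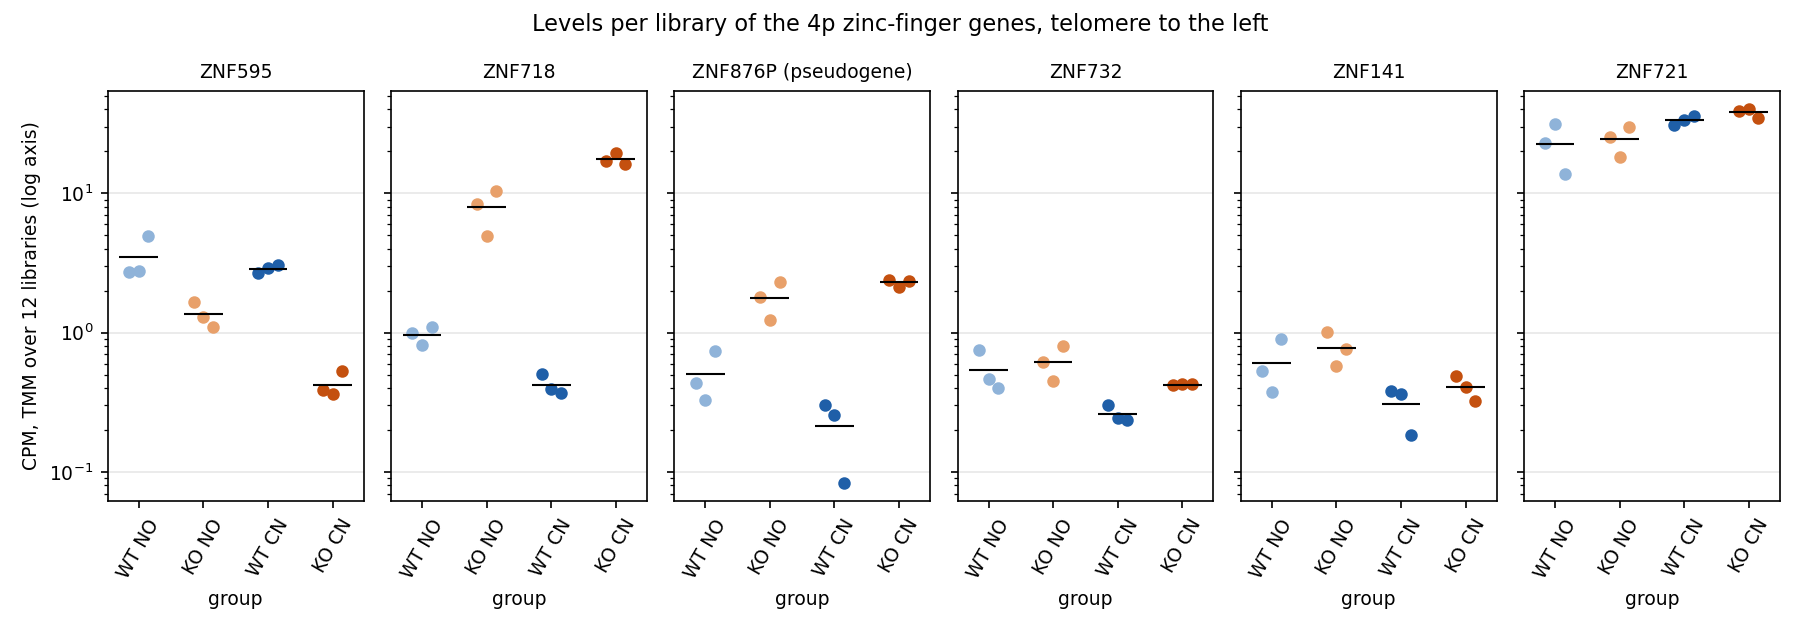
Level of each zinc-finger gene and of the pseudogene ZNF876P in each of the 12 libraries (points, CPM scaled by TMM over all 12 libraries, log axis), with the group mean as a bar, for HEK WT (blue) and HEK UL1 KO (orange) in NO (light) and CN (dark). ZNF718 and ZNF876P lie higher and ZNF595 lower in the knockout, while the genotypes overlap or lie close for ZNF732, ZNF141 and ZNF721.

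ZNF595, the gene nearest the telomere, moved the other way. In CN it had 176, 193 and 181 counts in HEK WT and 23, 22 and 26 in HEK UL1 KO, which are 2.09, 2.31 and 2.29 against 0.314, 0.293 and 0.439 CPM. The 3 knockout libraries were all far below the 3 wild-type libraries. The log2 fold change was -2.69 (SE 0.182, adjusted p = 3.56e-06, edgeR), the second largest fall among the 437 tested genes named ZNF and a number. It kept its direction and its call under all 13 alternatives in CN.

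In NO, ZNF595 had 137, 118 and 360 counts in HEK WT and 216, 72 and 57 in HEK UL1 KO, or 3.51, 3.65 and 6.06 against 1.95, 1.69 and 1.34 CPM. HEK WT replicate 3 was the highest, and the groups did not overlap. ZNF595 fell by 1.41 on the log2 scale (SE 0.298, adjusted p = 0.0347, edgeR), and by 1.11 without HEK WT NO replicate 3 (adjusted p = 0.00459, edgeR). The call was lost without HEK WT NO replicate 1 (-1.52, adjusted p = 0.0558), HEK UL1 KO NO replicate 2 (-1.37, 0.11) or replicate 3 (-1.29, 0.107), with a minimum of 10 counts in every library (-1.31, 0.0842) and with total counts in place of TMM (-1.13, 0.729), and the adjusted p over all alternatives ranged from 0.00100 to 0.729 (edgeR and DESeq2).

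ZNF718 and ZNF595 together changed in makeup as well as in amount. ZNF718 gave 10.8 to 15.8% of the counts of the pair in the HEK WT CN libraries and 96.8 to 98.2% in HEK UL1 KO CN. In NO the share was 18.2 to 26.7% in HEK WT and 79.3 to 90.4% in HEK UL1 KO. The summed level of the pair was 2.55 ± 0.0692 CPM (SD, n = 3) in HEK WT CN and 14.7 ± 1.24 in HEK UL1 KO CN, and 5.64 ± 1.53 against 11.3 ± 2.92 in NO. In CPM, the loss of ZNF595 was smaller than the gain of ZNF718 in both fractions. These sums hold ZNF718, so they are descriptive.

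ZNF721 rose by a small amount in CN and did not pass the test in NO. It was the most abundant gene of the cluster, with 24.2, 26.5 and 26.9 CPM in HEK WT CN and 32.0, 32.7 and 29.0 in HEK UL1 KO CN. The groups did not overlap, and the log2 fold change was 0.27 (SE 0.0773, adjusted p = 0.0184, edgeR). In NO it was 30.0, 41.5 and 16.8 CPM in HEK WT and 29.7, 23.7 and 36.1 in HEK UL1 KO, which overlapped (log2 fold change 0.02, SE 0.351, adjusted p = 0.982, edgeR). The call in CN was lost without HEK WT CN replicate 1 (0.22, adjusted p = 0.0947), HEK UL1 KO CN replicate 1 (0.23, 0.114) or replicate 2 (0.25, 0.0887), with no filter (0.24, 0.173), with all 12 libraries in one fit (0.19, 0.664) and in DESeq2 (0.21, 0.190), within a range of 0.00331 to 0.664 over all alternatives.

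ZNF732 had few reads, with 20, 16 and 14 counts in HEK WT CN and 25, 26 and 21 in HEK UL1 KO CN. On the CPM scale these are 0.237, 0.191 and 0.177 against 0.342, 0.346 and 0.354. The groups did not overlap, but the gene did not pass the threshold (log2 fold change 0.78, SE 0.289, adjusted p = 0.0560, edgeR). It passed with a minimum of 10 counts in every library (0.85, adjusted p = 0.0142), and its adjusted p over all alternatives ranged from 0.0142 to 0.218 (edgeR and DESeq2). In NO the groups overlapped, at 0.974, 0.618 and 0.489 CPM against 0.721, 0.588 and 0.960 (log2 fold change 0.13, SE 0.360, adjusted p = 0.867, edgeR).

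ZNF141 overlapped between genotypes in both fractions. It had 25, 24 and 11 counts in HEK WT CN and 29, 25 and 16 in HEK UL1 KO CN, or 0.297, 0.287 and 0.139 against 0.396, 0.333 and 0.270 CPM. Its log2 fold change was 0.47 in CN (SE 0.348, adjusted p = 0.311, edgeR). In NO it had 0.692, 0.494 and 1.10 CPM in HEK WT and 1.18, 0.752 and 0.914 in HEK UL1 KO (0.30, SE 0.349, adjusted p = 0.671, edgeR). Without HEK WT NO replicate 3, the NO values were 0.68 for ZNF141, -0.11 for ZNF732 and -0.28 for ZNF721, and none of them passed the threshold (adjusted p from 0.116 to 0.805, edgeR).

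Over the 4 genes other than ZNF718, edgeR called 1 lower and 0 higher in NO, where 0.939% of the 34836 genes tested were called, 0.574% lower and 0.365% higher. In CN it called 1 lower and 1 higher, where 37.9% of 27234 genes were called, 22.3% lower and 15.6% higher. The count in CN, 2 of 4, is near that background. All 5 genes passed the filter on low counts in both fractions. Of the 4, ZNF595 was below without overlap in both fractions, beside 9.17% of all genes in NO and 28.1% in CN. ZNF732 and ZNF721 were above without overlap in CN, beside 24.7% of all genes.

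The levels per kilobase of exon also changed order within the cluster. The place of ZNF718 in these orders, in both fractions, rests on the levels that led to its choice and is descriptive. In HEK WT CN, ZNF721 had 4.05 ± 0.223 CPM per kilobase (SD, n = 3), ZNF595 had 0.567 ± 0.0307, ZNF732 had 0.0860 ± 0.0135, ZNF718 had 0.0644 ± 0.0115 and ZNF141 had 0.0186 ± 0.00683. ZNF732 and ZNF718 overlapped, and the other neighbours in this order did not. In HEK UL1 KO CN, ZNF718 stood second at 2.84 ± 0.256 CPM per kilobase, below ZNF721 at 4.89 ± 0.306 and above ZNF732 at 0.148 ± 0.00272, ZNF595 at 0.0887 ± 0.0200 and ZNF141 at 0.0257 ± 0.00488. No neighbours in that order overlapped.

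In HEK WT NO the order of the levels was the same as in HEK WT CN. ZNF721 had 4.61 ± 1.93 CPM per kilobase, ZNF595 1.12 ± 0.366, ZNF732 0.296 ± 0.107, ZNF718 0.244 ± 0.0273 and ZNF141 0.0588 ± 0.0237, with ZNF732 and ZNF718 again overlapping. In HEK UL1 KO NO, ZNF721 was at 4.67 ± 0.965 CPM per kilobase, ZNF718 at 1.90 ± 0.604, ZNF595 at 0.422 ± 0.0782, ZNF732 at 0.322 ± 0.0805 and ZNF141 at 0.0733 ± 0.0167. ZNF595 and ZNF732 overlapped there. The exon length of ZNF141, 12944 bases over all its annotated transcripts, is the longest of the 5, and its level per kilobase depends on that annotation.

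The pseudogene ZNF876P, the next gene after ZNF718, rose with it. It had 20, 17 and 5 counts in HEK WT CN and 143, 130 and 116 in HEK UL1 KO CN, or 0.237, 0.203 and 0.0632 against 1.95, 1.73 and 1.96 CPM (log2 fold change 3.46, SE 0.297, adjusted p = 1.35e-05, edgeR). In NO it was 0.564, 0.433 and 0.910 CPM in HEK WT and 2.12, 1.60 and 2.76 in HEK UL1 KO (1.72, SE 0.340, adjusted p = 0.0240, edgeR). The groups did not overlap in either fraction. Farther along, ABCA11P had log2 fold changes of 0.19 in CN (adjusted p = 0.106) and -0.03 in NO (0.969). PIGG, an enzyme of glycosylphosphatidylinositol anchor synthesis, had 0.40 in CN (adjusted p = 0.0199) and 0.16 in NO (0.777, all edgeR).

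**Figure D2:**
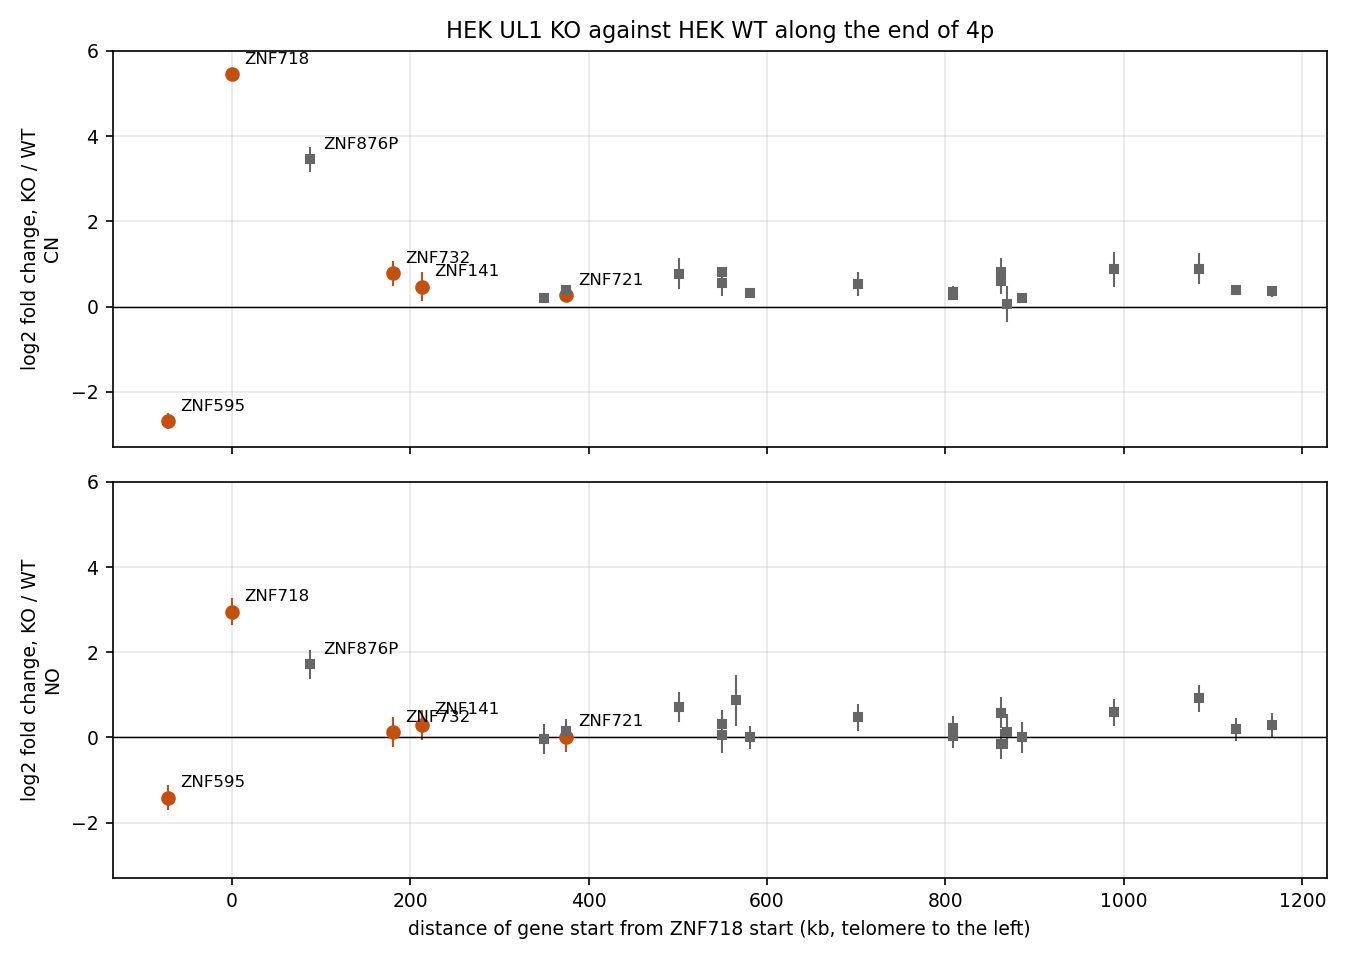
Log2 fold change of HEK UL1 KO over HEK WT, with its SE as a vertical bar, for the zinc-finger genes (orange circles) and the tested genes of the neighbour list (grey squares) in CN (top) and NO (bottom), against the distance of the gene start from that of ZNF718 in kilobases. In CN, ZNF718 (5.45) and ZNF876P (3.46) lie side by side far above 0, ZNF595 (-2.69) lies below, and the genes farther from the telomere lie between 0.06 and 0.89.

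A list of 20 other genes of the same chromosome end was followed, which holds ZNF876P and ABCA11P from within the cluster. In CN, 6 of its 18 tested genes rose and 0 fell, with a median log2 fold change of 0.47 against 0.04 over all genes tested. The 6, named after their values had been seen apart from ZNF876P and PIGG, were ZNF876P, PIGG, ATP5ME (0.82), PCGF3 (0.32), CTBP1 (0.38) and MAEA (0.36). In DESeq2, 2 of the 20 rose. The share called, 33.3%, lies beside 15.6% of all genes called higher and 37.9% called in either direction. In NO, 1 of 19 rose, ZNF876P, and 0 fell, with a median of 0.23 against 0. No gene of the list but ZNF876P was called in the same direction in both fractions.

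Zinc-finger genes elsewhere in the genome moved in both directions. Of 477 genes named ZNF and a number, 465 were tested in NO, where 5 were called higher and 4 lower at a median log2 fold change of -0.14. In CN 437 were tested, and 103 were called higher and 81 lower at a median of 0.01. With total counts in place of TMM the split in CN was 92 higher and 18 lower, and 0 were called in NO, where 49 had an unadjusted p under 0.05 and DESeq2 called 8 higher and 9 lower. The called share with TMM was 1.94% in NO and 42.1% in CN, beside 0.939 and 37.9% of all genes. With the 5 genes of the cluster left out, 4 were higher and 3 lower in NO and 101 higher and 80 lower in CN. Within this class ZNF718 had the largest rise in NO and, after ZNF544, the second largest in CN, and ZNF595 had the third largest fall in NO.

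**Figure D3:**
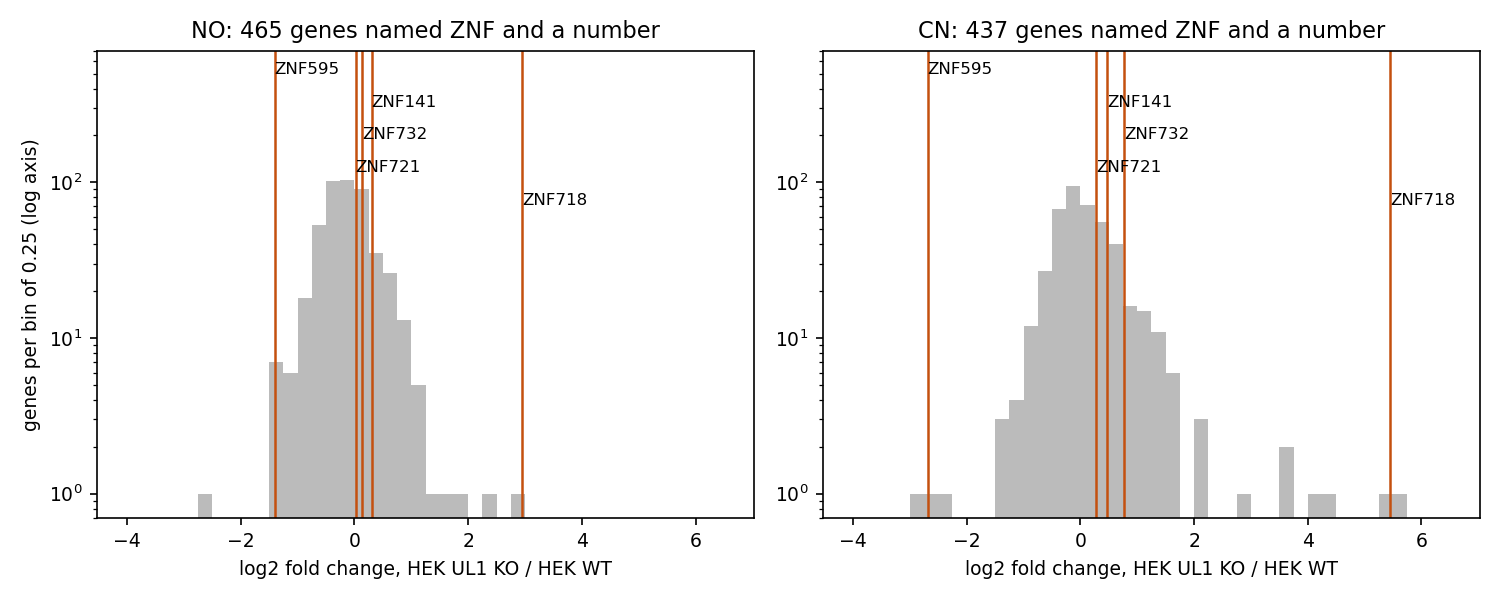
Number of genes named ZNF and a number in each bin of 0.25 of the log2 fold change, HEK UL1 KO over HEK WT (log axis), for the 465 tested in NO (left) and the 437 tested in CN (right), with vertical lines at the 5 genes of the cluster. Most genes lie near 0 (median -0.14 in NO and 0.01 in CN), with ZNF718 at the right end, ZNF595 in the left tail and the other 3 within the bulk.

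The genes of the machinery through which KRAB zinc-finger proteins repress were taken as a list of 20, all of them tested. In CN, 4 rose and 7 fell, with log2 fold changes from -0.99 to 0.55 and a median of -0.16. This is 55% of the list, beside 37.9% of all genes. In NO, edgeR called 0 of 20, with 3 at an unadjusted p under 0.05, while DESeq2 called 2 lower, and the median was -0.36. Under total counts 4 rose and 1 fell in CN, and the medians were 0.04 in CN and 0.20 in NO, where the medians of all genes were 0.24 and 0.40. TRIM28, named for its role although it met no naming rule, fell by 0.57 in CN (SE 0.109, adjusted p = 0.00204, edgeR) and had -0.96 in NO (SE 0.296, adjusted p = 0.131, edgeR). SETDB1 and the heterochromatin protein genes CBX1, CBX3 and CBX5 were not called in CN. SETDB1 had 0.03 (adjusted p = 0.825, edgeR), and the CBX genes had -0.01, -0.17 and 0.08. Other genes of the list were called there in both directions. Among them were CHD3 (0.52, adjusted p = 0.0142), ATF7IP (0.26, 0.0271), HDAC2 (-0.35, 0.00275) and SMARCAD1 (-0.45, 0.00082, all edgeR). The largest fall of the list was that of HDAC1 (-0.99 in CN, adjusted p = 6.15e-05, edgeR). These genes, like TRIM28, met no naming rule. A link between TRIM28 and the genes of the cluster was not tested.

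The size of the genotype difference was compared between the fractions in a fit of all 12 libraries. For ZNF718 the difference, NO minus CN, was -2.35 on the log2 scale (SE 0.363), given without a test because of how the gene was chosen. ZNF595 had 1.42 (SE 0.373, unadjusted p = 0.00129, adjusted p = 0.417, edgeR), so its smaller fall in NO did not pass the threshold. Without HEK WT NO replicate 3, it did (1.77, adjusted p = 0.0174). The values were -0.49 for ZNF732, -0.03 for ZNF141 and -0.08 for ZNF721, and -1.61 for ZNF876P (adjusted p = 0.817). Of the 4 genes, edgeR called 0, with 1 at an unadjusted p under 0.05, and DESeq2 also called 0, where edgeR called 0.114% of the 37806 genes tested, 0.0846% with a higher and 0.0291% with a lower value in NO.

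NO and CN were also compared within each genotype, a contrast that the choice of the genes did not use directly, although its libraries are the same. For ZNF718, the levels that led to its choice are also the levels compared here. Its values in these contrasts are therefore descriptive, and counts that include it are not independent of that choice. Levels here are CPM scaled over all 12 libraries. Of the 4 genes other than ZNF718, 2 were higher and 0 lower in NO in HEK WT, where 66% of all genes differed, 38.6% of all genes being higher and 27.4% lower. In HEK UL1 KO, 2 were higher and 1 lower, where 66.7% of all genes differed, 38.3% being higher and 28.4% lower. With ZNF718 included, the totals were 3 and 4 of 5, near these backgrounds of all genes. The median over all genes was 0.26 and 0.25 on the log2 scale in favour of NO. Genes named ZNF and a number lay more on the side of CN. Of 471 tested, 63 were higher and 206 lower in NO in HEK WT (median -0.45), and 46 and 249 in HEK UL1 KO (median -0.56). With total counts this turned, to 76 higher and 12 lower in HEK WT and 59 and 4 in HEK UL1 KO.

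ZNF718 stood on opposite sides in the 2 genotypes. In HEK WT it had 0.986, 0.817 and 1.10 CPM in NO and 0.501, 0.393 and 0.369 in CN, every NO library above every CN library (log2 fold change, NO over CN, 1.21, SE 0.283). In HEK UL1 KO it had 8.39, 4.97 and 10.4 CPM in NO and 17.0, 19.5 and 16.1 in CN, every NO library below every CN library (-1.15, SE 0.228). These values are descriptive and given without a test, because the levels compared led to the choice of the gene. Leaving out each library gave 0.99 to 1.33 in HEK WT and -1.42 to -0.91 in HEK UL1 KO. With total counts the value in HEK UL1 KO was -0.42, a scaling under which the median of all genes was 0.97.

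ZNF595 had its higher level in NO in the knockout. In HEK WT, its NO and CN libraries overlapped, at 2.703, 2.75 and 4.96 against 2.67, 2.92 and 3.04 CPM (0.28, SE 0.241, adjusted p = 0.308, edgeR). Without HEK WT NO replicate 3 the value was -0.08, and with a minimum of 10 counts in every library it was 0.83 (adjusted p = 0.0428). In HEK UL1 KO it was higher in NO, at 1.65, 1.30 and 1.11 against 0.385, 0.360 and 0.528 CPM (1.70, SE 0.285, adjusted p = 0.000392, edgeR), without overlap and under all 18 alternatives. Whether this differed from HEK WT is the interaction given above, which passed no threshold with all libraries.

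**Figure D4:**
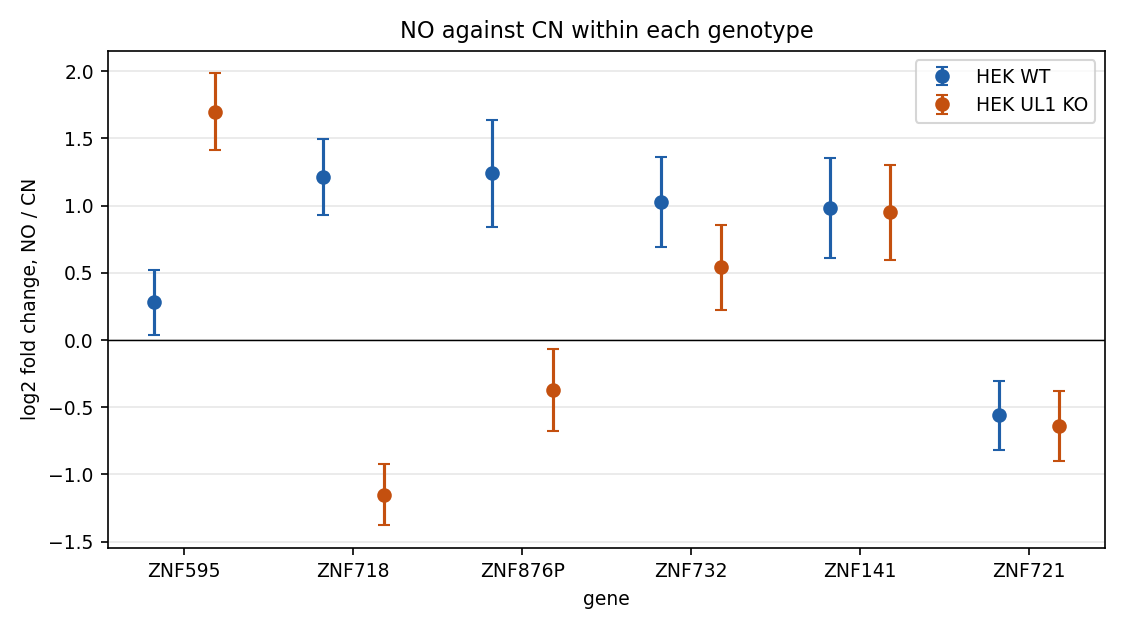
Log2 fold change of NO over CN, with its SE, for each gene in HEK WT (blue) and HEK UL1 KO (orange), from the fit of all 12 libraries. ZNF718 goes from 1.21 to -1.15 and ZNF595 from 0.28 to 1.70, while ZNF141 (0.98 and 0.95) and ZNF721 (-0.56 and -0.64) lie close together in the 2 genotypes.

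ZNF732 and ZNF141 were higher in NO in HEK WT, and ZNF721 lay on the side of CN. ZNF732 differed by 1.03 in HEK WT (SE 0.335, adjusted p = 0.0128) and by 0.54 in HEK UL1 KO (SE 0.314, adjusted p = 0.129), and ZNF141 by 0.98 (SE 0.371, adjusted p = 0.0277) and 0.95 (SE 0.355, adjusted p = 0.0259, all edgeR). ZNF721 had -0.56 in HEK WT (SE 0.258, adjusted p = 0.0639, edgeR, and -0.60, 0.039 in DESeq2) and -0.64 in HEK UL1 KO (SE 0.258, adjusted p = 0.0364, edgeR). Each of these calls was lost in at least 1 alternative: ZNF732 in HEK WT without HEK WT NO replicate 1 (adjusted p = 0.116) or HEK WT CN replicate 3 (0.0612), and ZNF141 in HEK WT without HEK WT NO replicate 3 (0.242), without HEK WT CN replicate 3 (0.161) or in DESeq2 (0.0503). ZNF141 in HEK UL1 KO lost it without HEK UL1 KO NO replicate 1 (0.147), HEK UL1 KO CN replicate 2 (0.0712) or replicate 3 (0.108), in DESeq2 (0.0541) and with no filter (0.0573). ZNF721 in HEK UL1 KO lost it with total counts (0.08, adjusted p = 0.775), with a minimum of 10 counts in every library (-0.14, 0.523), with TMM without rRNA genes (-0.51, 0.0710) or without any 1 of HEK UL1 KO NO replicates 1 and 2 and HEK UL1 KO CN replicates 1 and 2, within 0.00608 to 0.775 over all alternatives. ZNF732 in HEK UL1 KO passed with a minimum of 10 counts in every library (1.05, adjusted p = 0.00432) and with total counts (1.27, 0.0157). ZNF876P was higher in NO in HEK WT (1.24, adjusted p = 0.0121) and had -0.37 in HEK UL1 KO (adjusted p = 0.285, edgeR).

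Of 37806 genes, those with levels most like those of ZNF718 over the 12 libraries, by Pearson r of log2(CPM + 0.5), were NCKAP5-AS2 (0.995), ANKRD1 (0.993), NALF1 (0.993), SLFN11 (0.992) and PCDH19 (0.992). ANKRD1 encodes an ankyrin-repeat protein of muscle, SLFN11 a restriction factor that acts on stalled replication forks, and PCDH19 a protocadherin of cell adhesion. The libraries share 2 genotypes and 2 fractions, and r over them is a description with no test. SLFN11, for one, was at 0.0126 to 0.0598 CPM in HEK WT CN and 10.9 to 13.6 in HEK UL1 KO CN, while NALF1 was at 2.48 to 2.86 and 25.8 to 27.4. The r of ZNF876P with ZNF718 was 0.978, that of ZNF595 was -0.916, and those of ZNF732, ZNF141 and ZNF721 were 0.417, 0.283 and 0.261.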

How the data were processed

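RNA was measured in 12 libraries, 3 for each genotype and fraction. The authors deposited raw counts per gene, one table per fraction. According to the submitters' processing notes, reads were trimmed with cutadapt 3.7, aligned to GRCh38 with STAR 2.7.8 and counted with featureCounts. The counting options, strand setting and annotation release are not given in the sources used here. All columns matched a label, and 0 were left out.

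Genotypes were compared within each fraction with edgeR 4.0.16 (R 4.3.3): filterByExpr (minimum count 10, minimum total 15), TMM, the quasi-likelihood F test and Benjamini-Hochberg adjustment over all genes tested, called under 0.05. The interaction and NO against CN were tested in one fit of all 12 libraries. CPM were scaled within a fraction unless stated. The SE is the log2 fold change divided by the square root of F. The procedure was tested on simulated counts. Alternatives were DESeq2 1.42.0, total counts, TMM without rRNA genes, no filter, at least 10 counts in every library, a replicate block, all 12 libraries in one fit and leaving out each library. Same-numbered libraries of different groups did not deviate together (correlations from -0.48 to -0.046), so they were not treated as pairs.

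The genes and gene lists were chosen with earlier results of these data known. Named were the 5 genes, HNRNPUL1, the 3 nearest neighbours, listed genes called in one direction in both fractions, the 5 genes most like ZNF718 and those next to it in the order of rises. Positions came from GENCODE release 44, and lengths are the union of annotated exons. Promoters were taken from RefSeq (GRCh38.p14) and aligned with Biopython 1.88. The promoter sequence of ZNF718 is not reported here. Figures were drawn with matplotlib 3.10.9. Among the 5 genes, counting error at these depths is largest for ZNF732 and ZNF141, whose counts were as low as 11 per library. The low sides of the other changes also had few counts. These were 22 to 33 for ZNF718 in HEK WT CN and 22 to 26 for ZNF595 in HEK UL1 KO CN. ZNF876P had 5 to 20 in HEK WT CN, so the sizes of these fold changes are uncertain.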

Additional observations from a re-analysis of the deposited data

Results flagged for a closer look

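ZNF718 was higher in NO than in CN in every HEK WT library and lower in NO than in CN in every HEK UL1 KO library. The log2 difference between the 2 contrasts was -2.35, and it was not tested because the gene had been chosen for its rise in the knockout. Other genes named here also had a smaller rise in NO than in CN. Each of the 5 genes most like ZNF718 had one, from NALF1 (1.85 in NO, 3.34 in CN) to SLFN11 (4.24 and 8.02). Those 5 were picked for levels like those of ZNF718 in the same libraries, so sharing this pattern follows from the choice. ZNF544 also had one (2.46 and 5.69), but it was named for its place in the order of rises. How common the pattern is among all genes cannot be read from these genes.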

How the results depend on the processing

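Under total counts the median log2 fold change of all genes moved from 0 to 0.40 in NO and from 0.04 to 0.24 in CN between genotypes, and from 0.26 to 0.91 in HEK WT and from 0.25 to 0.97 in HEK UL1 KO between fractions, so that values under this scaling are to be read relative to those shifts. Of the 4 genes other than ZNF718, the number changed in NO was 1, and it was 0 with total counts, 0 with a minimum of 10 counts in every library and 0 to 1 leaving out each library. The number changed in CN was 2, and it was 1 in DESeq2, 1 with no filter, 1 with all 12 libraries in one fit, 3 with a minimum of 10 counts in every library and 1 to 2 leaving out each library. The number whose genotype effect differed between fractions was 0, and 0 to 1 leaving out each library. Of all 5 genes, the number differing between NO and CN was 3 in HEK WT and 4 in HEK UL1 KO, and 1 to 4 and 2 to 4 leaving out each library. These last counts include ZNF718, whose values are descriptive. With the replicate number as a block, although the numbers did not pair the libraries, the number changed in NO was 0 (ZNF595 at -1.37, adjusted p = 0.0729, edgeR) and the number changed in CN stayed at 2, ZNF721 between fractions in HEK UL1 KO lost its call (-0.63, adjusted p = 0.0686, edgeR), and the block changed no other call of the 5 genes. The share of all genes called ranged from 0.0287 to 25.1% in NO and from 11.1 to 42.9% in CN over these alternatives.

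Some signs turned. ZNF721 in NO was -0.03 in DESeq2, -0.02 with no filter and -0.28 to 0.38 leaving out each library, and with total counts its interaction was 0.13 and its difference between fractions in HEK UL1 KO, a called -0.64, was 0.08. Leaving out each library gave -0.11 to 0.50 for ZNF732 in NO, -0.28 to 0.40 for the interaction of ZNF141, -0.35 to 0.22 for that of ZNF721 and -0.08 to 0.39 for ZNF595 between fractions in HEK WT. With total counts ZNF718 rose by 3.34 in NO and 5.66 in CN. The causes were not tested. Where a library was left out, the remaining ones set the spread. Counts of 11 to 131 per library limit what could be seen for ZNF732 and ZNF141.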
